A study of Homo sapiens with 4 samples.

Results

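The response of U2-OS cells to OGE was measured as the difference between 2 of the 4 arrays of a study of human osteosarcoma lines. One array held RNA of U2-OS cells without OGE (0 μg/mL) and the other RNA of U2-OS cells exposed to 600 μg/mL OGE for 24 h; the remaining 2 arrays held HOS cells in the same states. U2-OS is an established line from a bone tumour with mesenchymal features, used here as cultured cells with no transgene or selection named in the labels. The labels do not spell out OGE, and they do not say whether the control received a vehicle. With 1 array per state there is no replicate check, so every value below describes these arrays by size, without a p-value or an error, and their number bounds how precise any value can be.

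Of 18417 genes with a probe set of their own, 11506 (62.5%) reached the floor in U2-OS, meaning that the higher of the pair of arrays was at or above its own median over all probe sets. Values are log2 RMA signals, so a difference of 1 is 2-fold. Genes at the floor that differed by at least 1 are termed higher or lower by size. Array medians lay between 3.58 and 3.62. Of 12 measured markers of mesenchyme, 10 were at or above the median without OGE and 11 with it. Of 13 epithelial, 15 immune and 10 endothelial markers, 6, 3 and 1 were there without OGE and 5, 3 and 1 with it.

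With OGE, 338 genes were higher by size, 2.94% of the genes at the floor, and 907 were lower, 7.88%. Counts of list members below are to be read beside these shares. The falls were more numerous and the rises larger. A difference of at least 2 was reached by 60 genes upward and 61 downward, of at least 3 by 16 and 2, and of at least 4 by 7 and 0. The median over all genes at the floor was -0.01, the 5th percentile -1.19 and the 95th 0.80. Genes called higher had a median level of 4.80 without OGE and 6.32 with it, and 73 of them lay below the array median without OGE. Genes called lower had median levels of 6.02 and 4.64, and 203 of them lay below the array median with OGE. RMA can compress low signals, and signals near the bottom of the scale may also lie near background. The size of differences of genes there is therefore uncertain.

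**Figure D1:**
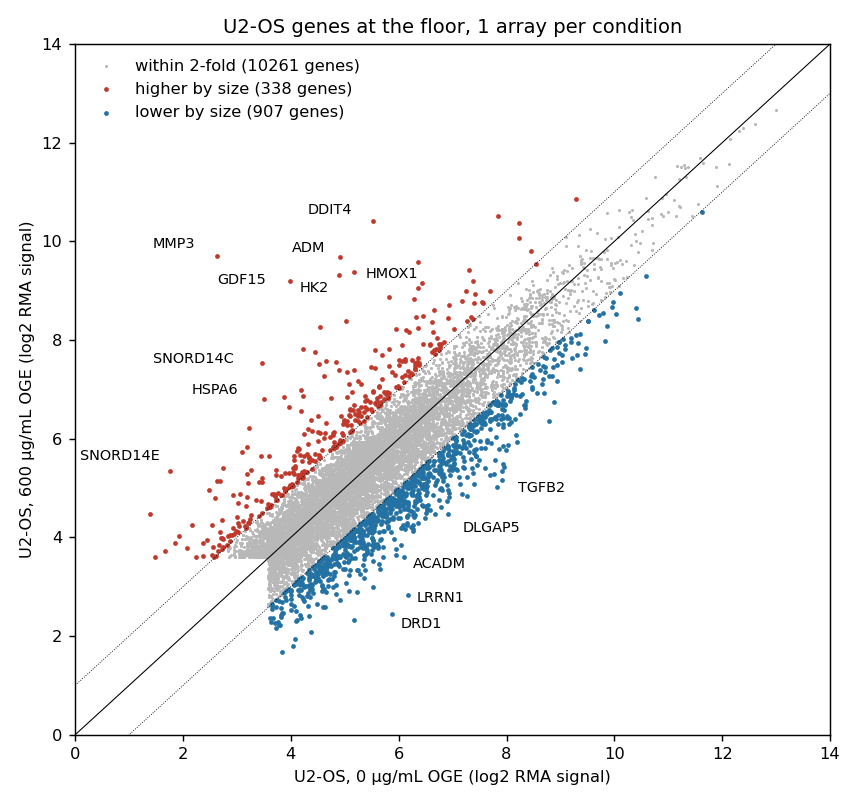
Log2 RMA signal in U2-OS of the 11506 genes that reached the floor, without OGE (horizontal axis) and with 600 μg/mL OGE (vertical axis), 1 point per gene, with the line of equality and dotted lines at 2-fold. The 338 genes higher by size (red) reach farther from the line than the 907 lower ones (blue); MMP3, at 2.64 and 9.71, stands farthest out.

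Cells that meet a toxic or metabolic load commonly answer through a few transcription programmes. Phosphorylation of eIF2 slows translation and raises ATF4 and CHOP, which drive genes of amino acid supply and feedback. HIF factors drive glucose uptake, glycolysis and angiogenic signals when oxygen sensing by the prolyl hydroxylases fails. NRF2 drives antioxidant genes, HSF1 the cytosolic chaperones, AP-1 and NF-kB the early response genes, and p53 the brakes on the cell cycle. The results are given in this order, then for matrix genes, the cell cycle, RNA processing and metabolism.

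The largest rise of all was that of MMP3, stromelysin, a secreted protease that cleaves matrix proteins. It was at 2.64 without OGE, below the array median, and at 9.71 with it, a difference of 7.07 that rests on a control value below the array median. In HOS, MMP3 was at 1.33 and 1.83, below the array median in both states. MMP3 lies in a cluster of metalloproteinase genes on chromosome 11, in which 3 of the 9 measured members next to each other were higher by size. Their order along the chromosome in the RefSeq table is MMP7, MMP20, MMP27, MMP8, MMP10, MMP1, MMP3, MMP12 and MMP13. MMP10, stromelysin 2, went from 2.56 to 3.80, and MMP1, the interstitial collagenase, from 2.68 to 5.15. The 3 are neighbours, and in HOS all of them lay below the array median in both states, MMP10 at 2.54 and 2.56 and MMP1 at 3.17 and 3.18. The other 6 stayed below the floor, from MMP8 at 1.29 and 1.32 up to MMP20 at 2.15 and 2.59.

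Over all 22 measured metalloproteinases, 15 reached the floor. Of these, 4 were higher by size (26.7%, beside 2.94% of all genes at the floor) and 0 lower. The fourth was MMP21, at 3.47 and 4.49, whose difference of 1.02 dropped to 0.99 with quantile normalization and to 0.95 with cyclic loess. The gelatinase MMP2 was at 7.85 and 7.54 and the membrane-bound MMP14 at 6.56 and 5.83, both within 2-fold. Their inhibitor TIMP1 was at 9.86 and 10.57, while TIMP2 was lower by size, at 8.29 and 6.90.

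Part of the integrated stress response genes were higher. Of 32 measured targets of ATF4 and CHOP, 12 were higher by size and 0 lower, and the median difference was 0.77 over all 32 and 0.86 over the 30 at the floor. GDF15, a secreted stress cytokine, went from 3.98 to 9.20, and DDIT4, an inhibitor of mTORC1, from 5.52 to 10.41. GDF15 was near the array median without OGE, and both were among the bright genes of the array with it. PPP1R15A, the phosphatase subunit that reverses eIF2 phosphorylation, went from 4.23 to 7.82. ATF3 went from 3.87 to 6.85, the pseudokinase TRIB3 from 4.65 to 7.57 and DDIT3, which encodes CHOP itself, from 4.84 to 7.56. CTH, the last enzyme of cysteine synthesis, went from 2.63 to 5.15.

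The remaining called targets were SESN2, SLC3A2, NUPR1, CEBPB and CHAC1, with differences from 2.08 for SESN2 down to 1.01 for CHAC1; the last was 0.97 after cyclic loess. ATF4 mRNA, whose protein is controlled mainly at translation, was at 9.11 and 10.08, just under 2-fold. Asparagine synthetase, ASNS, differed by 0.81, and the cystine transporter SLC7A11 by 0.38, where the HOS arrays differed by 1.57 and 2.26. Among 14 genes of eIF2 kinases and phosphatase subunits, the kinases EIF2AK4 (GCN2) and EIF2AK2 (PKR) were lower, by -1.46 and -1.04, with EIF2AK2 at -0.98 after quantile normalization. The endoplasmic reticulum kinase EIF2AK3 (PERK) differed by -0.68.

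Amino acid transporters had 3 of 27 measured members higher by size, SLC3A2 by 1.82, SLC38A1 by 1.07 and SLC1A5 by 1.05. SLC3A2 is the heavy chain that carries several of these transporters to the membrane. The value of SLC1A5 rests on 1 of its probe sets, since their mean differed by 0.28. Of 19 cytosolic tRNA synthetases, WARS1 and SARS1 were higher, by 1.17 and 1.00, and RARS1 lower, by -1.08.

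The promoter of ATF3 carries 1 match to the searched ATF4-type motif TGATGNAA in the 250 bases before its start, and is shown because ATF3 was the called member of this list with the largest rise that held one. The sequence is from RefSeq, GRCh38.p14, chr1:212565157-212565406, plus strand, with the match in capitals, its first base 191 bases before the start.
ATF3 promoter: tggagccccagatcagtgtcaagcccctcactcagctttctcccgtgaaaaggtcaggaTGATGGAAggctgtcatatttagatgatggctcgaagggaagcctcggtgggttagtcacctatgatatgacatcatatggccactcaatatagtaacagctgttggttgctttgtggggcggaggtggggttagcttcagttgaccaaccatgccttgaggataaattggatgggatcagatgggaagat
Among promoters of 300 bases, the motif on either strand was found in 5 of 24 ATF4 and CHOP targets at the floor that had a promoter sequence (20.8%), against 1.6% of all 9145 such genes at the floor. In the 250 bases before the start only, 3 of the 24 (12.5%) held it, against 1.34%.

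Hypoxia genes were also higher in part. Of 27 measured HIF subunits, prolyl hydroxylases and hypoxia reporters, 8 were higher by size and 1 lower, with a median of 0.35 over all measured members. ADM, the vasodilator peptide adrenomedullin, went from 4.92 to 9.68, and NDRG1, a stress-responsive differentiation gene, from 6.36 to 9.59. BNIP3, a mitophagy receptor, went from 4.53 to 7.52. All 3 lay above the array median already without OGE. The transcriptional repressor BHLHE40 was higher by 2.72, ANKRD37 by 1.88, the angiogenic factor VEGFA by 1.81 and PFKFB4, which sets a glycolytic regulator, by 1.13.

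The HIF subunits and the oxygen-sensing enzymes are the upstream part of this list. EPAS1, which encodes HIF-2 alpha, was higher by 1.64, whereas HIF1A was at 8.41 and 7.44, a difference of -0.97 that stayed just short of the threshold. The hydroxylases EGLN1 and EGLN3, themselves known HIF targets, differed by 0.68 and 0.79, and VHL by 0.22. The carbonic anhydrase CA12 was lower, by -1.21. The HOS array pair differed by 0.11 for EPAS1, 0.63 for ADM and 1.40 for NDRG1.

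Transcripts of some glucose transporters and of the first enzyme of glycolysis were higher. Of 14 measured facilitative glucose transporters, 3 were higher by size and 1 lower, with a median of -0.02 over the 9 at the floor. HK2, the inducible hexokinase, went from 4.90 to 9.31, or 21.3-fold. SLC2A3 and SLC2A1, the glucose transporters GLUT3 and GLUT1, went from 7.85 to 10.51 and from 8.23 to 10.38. PDK1, which holds pyruvate back from the mitochondria, went from 3.96 to 6.64. In HOS, HK2 was already at 7.52 without OGE and was at 7.86 with it.

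Of 25 measured glycolysis and lactate genes, 5 were higher by size and 1 lower. ENO2 was higher by 1.81 and ALDOC by 1.34, both tissue-restricted isoforms, whereas LDHA was at 10.69 and 10.34 and PGK1 at 8.85 and 9.47. LDHB was lower, at 10.10 and 8.95, with -0.91 after quantile normalization. Among glucose transporters SLC2A12 was lower, at 5.18 and 2.33. SLC2A14, higher by 1.15, is a near copy of SLC2A3, so its probes may share signal with it.

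NDRG1, higher by 3.23, was not considered when a hypoxia promoter was chosen to be shown. Of the other called hypoxia genes with the core hypoxia motif ACGTG before their start, BNIP3 had the largest rise, and its promoter is shown. It holds 2 overlapping matches, 1 on each strand, in a single palindrome whose first base is 134 bases before the start (RefSeq, GRCh38.p14, chr10:131981924-131982173, minus strand; capitals mark the matches).
BNIP3 promoter: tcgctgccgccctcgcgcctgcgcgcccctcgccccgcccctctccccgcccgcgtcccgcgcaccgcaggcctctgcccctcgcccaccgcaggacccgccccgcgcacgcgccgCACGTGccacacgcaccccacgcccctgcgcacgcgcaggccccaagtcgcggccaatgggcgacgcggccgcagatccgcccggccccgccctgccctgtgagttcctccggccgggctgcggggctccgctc
ACGTG is short and common: it was present in 8 of 22 hypoxia-list promoters (36.4%), 31.9% of the 232 promoters of genes called higher and 26.7% of all promoters at the floor.

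NRF2 targets showed a few large rises and a small median. Of 32 measured, 6 were higher by size and 0 lower, with a median of 0.24. HMOX1, heme oxygenase, which breaks down heme, went from 5.18 to 9.37. FTL, the ferritin light chain, went from 9.28 to 10.86, the autophagy receptor SQSTM1 from 7.17 to 8.80 and OSGIN1 from 4.93 to 6.47. AKR1C1 was higher by 1.93, or 0.98 as the mean of its probe sets, and the sulfiredoxin SRXN1 by 1.17. Several standard NRF2 reporters stayed within 2-fold: NQO1 was at 6.45 and 6.70, TXNRD1 at 8.10 and 8.01, and GCLM at 3.84 and 4.63. The HOS pair differed by 1.39 for NQO1 and 2.11 for GCLM. Among other iron genes the exporter SLC40A1 was lower, by -1.25. The antioxidant motif TGACNNNGC was found in the 250 bases before the start of 6 of 21 NRF2 target promoters (28.6%), against 12.5% of all at the floor, but of no member called higher.

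Cytosolic heat shock genes split. HSPA6, a stress-inducible HSP70 gene with a near-identical copy, HSPA7, went from 3.50 to 6.80, where the HOS arrays were at 3.56 and 3.28. The proteasome adaptor ZFAND2A went from 6.28 to 8.83, and the cochaperone DNAJB1 from 8.46 to 9.81. BAG3 and HSPB8, partners in selective autophagy, were higher by 1.21 and 1.97. The constitutive chaperones did not follow: HSPA8 was at 11.20 and 10.72, HSP90AA1 at 8.23 and 7.61, and HSPA4 was lower, at 7.29 and 6.10. Over 25 measured members of the HSP70, HSP90 and cochaperone list the median was -0.29, with 4 higher by size and 1 lower. HSPA6 is not on that list, whose largest difference was 2.55, so neither the counts nor the median include it.

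Some endoplasmic reticulum chaperones were lower. Of 34 measured, 6 were lower by size and 1 higher, with a median of -0.28. The 6 were 18.2% of the 33 at the floor, beside 7.88% of all genes there. HSP90B1 (GRP94) went from 9.36 to 7.42, calnexin (CANX) from 9.97 to 8.78 and the disulfide isomerase PDIA4 from 8.13 to 7.02. HSPA5 (BiP), also on this list, was at 10.02 and 9.56. HERPUD1, a degradation factor, was the exception on this list, at 6.30 and 7.42. DNAJB9, which is not on this list, was also called higher, with a difference of 0.98 after cyclic loess. The falls of CANX, PDIA6 and DNAJB11 dropped under 2-fold after quantile normalization, to -0.99, -0.83 and -0.94.

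Early response factors were higher in part. Of 17 measured AP-1 and small MAF genes, 6 were higher by size and 0 lower, with a median of 0.56, and of 25 EGR, KLF and NR4A factors 2 and 0, with a median of 0.40. FOS went from 4.89 to 7.39, JUN from 6.91 to 8.45, MAFF from 4.12 to 5.76 and FOSB from 4.17 to 5.68, while JUNB was higher by 1.04. JUN and ATF3 differed by 0.06 and 0.68 between the HOS arrays and FOS by 1.82. MYC, the growth regulator, went from 5.83 to 8.88, and MXD1, which competes with it for MAX, from 4.19 to 6.98. The phosphatases DUSP1, DUSP10 and DUSP5, which switch off MAP kinases, were higher by 2.10, 1.90 and 1.88.

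NF-kB subunits and feedback genes were higher in part. Of 21 measured, 5 were higher by size in U2-OS and 0 in HOS. Over the 18 members at the U2-OS floor, the median differences were 0.53 in U2-OS and 0.10 in HOS. The difference between the lines cannot be tested with 1 array per state. TNFAIP3 (A20), a deubiquitinase that shuts the pathway off, went from 2.74 to 5.41, and its HOS values were 2.69 and 3.12. The inhibitor NFKBIA went from 5.25 to 7.16. NFKB2, RELB and NFKBIB were higher by 1.12, 1.07 and 1.03. Cytokine targets of the pathway were low: IL6 was at 2.08 and 2.40 and CXCL8 at 3.24 and 3.61. Of 34 interleukins and chemokines, IL24 was higher, at 2.59 and 4.80, and CXCL14 lower, at 8.79 and 6.35. PTGS2, cyclooxygenase 2, was at 2.53 and 3.64.

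The AP-1 motif TGANTCA was present in 12.9% of the 232 promoters of genes called higher, in 3.94% of the 762 promoters of genes called lower and in 4.53% of all promoters at the floor. With only the 250 bases before the start these shares were 10.3%, 3.67% and 3.98%. The ATF4-type motif was in 3.88% of genes called higher, 1.84% of those called lower and 1.6% of all. Before the start only, these shares were 1.72%, 1.71% and 1.34%. The heat shock motif GAANNTTC was in 7.76% of genes called higher, 4.59% of those called lower and 4.42% of all. CCAAT was in 40.1%, 40.7% and 36.2%, so its share was similar in genes called higher and lower. These shares describe letters in the windows and not binding.

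Genes of p53 and of the brakes on growth rose in part. Of 31 measured p53 targets, 7 were higher by size and 1 lower, with a median of 0.20; GDF15 and SESN2 are also on the ATF4 list. CDKN1A (p21), an inhibitor of cyclin-dependent kinases, went from 6.45 to 7.92. SERTAD1 was higher by 2.21, the nuclease AEN by 2.08, GADD45A by 1.74 and PLK3 by 1.66. MDM2, the ligase that p53 induces against itself, was at 6.16 and 6.21, and the apoptosis gene BBC3 at 5.97 and 6.27. CCNG1 differed by -0.69, and TIGAR was lower by -1.14. Of 13 CDK inhibitors and SKP2 ligase genes, CDKN1B (p27), CDKN3 and SKP2 were lower by size, CDKN1B at 6.26 and 4.97. GADD45B was higher by 1.78 and the antiproliferative BTG1 by 2.70.

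**Figure D2:**
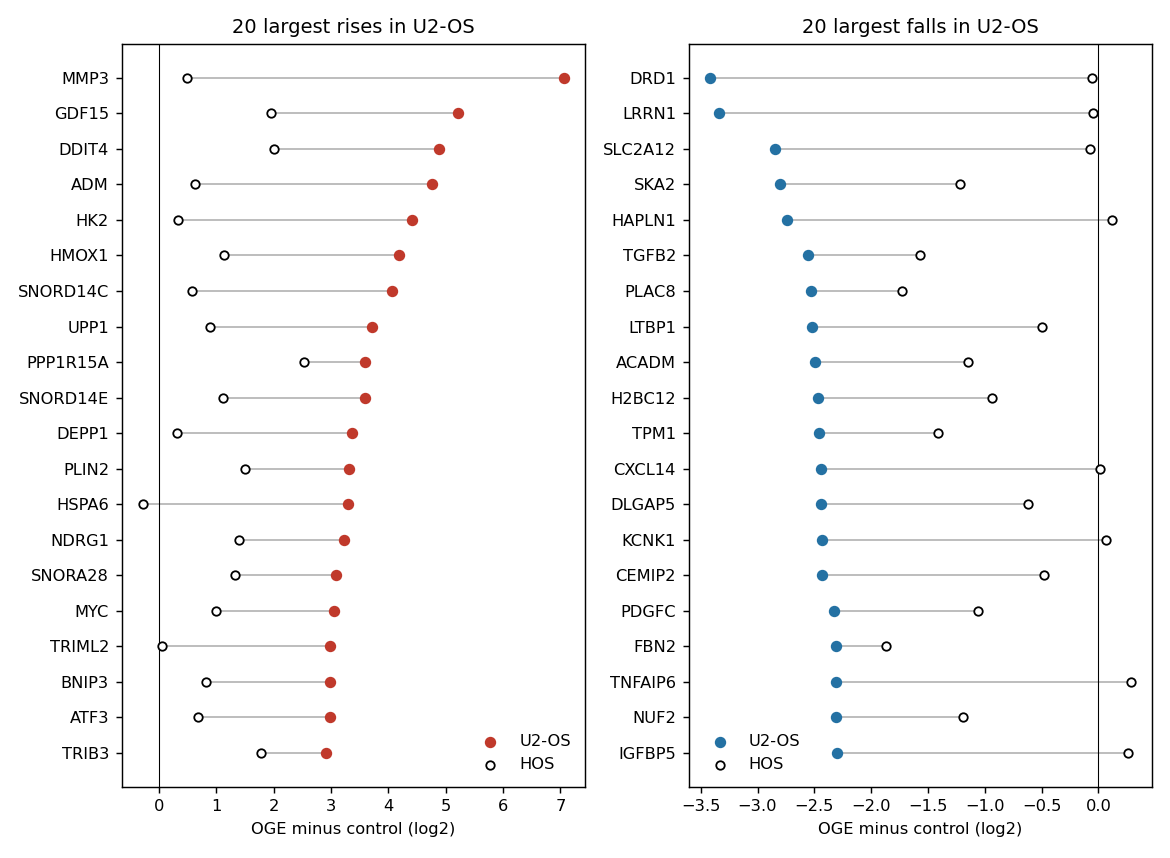
Log2 difference with OGE for the 20 genes with the largest rises (left) and the 20 with the largest falls (right) in U2-OS, with the same difference in HOS as open circles. MMP3 at 7.07 and DRD1 at -3.42 bound the U2-OS values, and several genes far from 0 in U2-OS lie near 0 in HOS, among them HSPA6 at -0.28 and LRRN1 at -0.05, both below the array median in HOS.

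Further large rises lay outside these programmes. UPP1, a uridine phosphorylase, went from 4.54 to 8.26, DEPP1 from 5.02 to 8.38 and PLIN2, a coat protein of lipid droplets, from 4.44 to 7.76. The droplet gene HILPDA, a known hypoxia gene, was higher by 1.75. TRIML2 went from 3.22 to 6.21 and the small GTPase GEM from 4.22 to 6.87, while HOS values for GEM were 6.02 and 5.65. SPHK1, which makes sphingosine phosphate, was higher by 2.38 and the acyltransferase GPAT3 by 2.24. Of clock genes, NR1D1 (REV-ERB alpha), RORA and NFIL3 were higher by 2.27, 1.75 and 1.45 and CLOCK lower by -1.21. PER1 and PER2 differed by 0.90 and 0.87.

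Several of the largest falls were of cell-surface and secreted proteins. DRD1, the dopamine D1 receptor, went from 5.87 to 2.45, LRRN1, a neuronal membrane protein, from 6.17 to 2.83 and the link protein HAPLN1, which ties hyaluronan to proteoglycans, from 7.91 to 5.17. In HOS these 3 genes lay below the array median in both states, at 1.95 and 1.89, 1.66 and 1.61, and 2.37 and 2.49. The same held for TNFAIP6, LGR5 and PCDHB10. TGFB2 went from 7.91 to 5.35 and LTBP1, which stores TGF-beta in the matrix, from 7.95 to 5.43. IGFBP5 was at 7.17 and 4.87, the syndecan SDC2 at 7.78 and 5.57, and PDGFC at 5.23 and 2.90.

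TGF-beta pathway genes had 4 of 21 measured members lower by size and 0 higher, with a median of -0.62. Besides TGFB2 and LTBP1 these were SMAD4 and SKIL, by -1.06 and -1.02, while TGFB1 was at 6.62 and 6.63. The receptors TGFBR1 and TGFBR2 differed by -0.96 and -0.93. BMP2 was higher, at 4.24 and 6.10, and the secreted follistatin-like protein FSTL1 and the ligand BMP5 lower, by -1.61 and -1.75. The homeobox gene MSX2 of the osteoblast list was higher by 1.33, RUNX2 differed by -0.59 and ALPL by 0.66.

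Structural matrix genes were lower in part. Of 43 measured collagen chains, 6 were lower by size and 0 higher, with a median of 0.02. At the floor, 19.4% of collagen chains, 31.8% of fibrillins, fibulins and matrix glycoproteins and 17.4% of integrins and laminins were lower. The share over all genes there was 7.88%. COL12A1 went from 6.49 to 4.39, COL3A1 from 7.45 to 5.46, COL5A2 from 6.26 to 4.46 and COL1A1 from 9.46 to 7.71. COL1A2, the partner chain of COL1A1, was at 4.46 and 4.38, against a HOS difference of -1.25. COL11A1 and COL4A1 were lower by -1.21 and -1.17. Of 30 fibrillins, fibulins and matrix glycoproteins, 7 were lower, led by FBN2, which went from 7.39 to 5.08, and including THBS1, SPARC and fibronectin (FN1) at -1.63, -1.40 and -1.20. Of 34 integrins and laminins, 4 were lower: ITGB1 went from 9.83 to 7.99 and ITGAV from 6.63 to 4.85, with ITGB8 at -1.56 and LAMA4 at -1.32. CD44, the hyaluronan receptor, was higher, at 5.64 and 7.07.

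Contractile genes were lower in part. Of 30 genes of nonmuscle myosin and the actin cytoskeleton, 7 were lower by size and 0 higher, with a median of -0.38. The 7 were 24.1% of the 29 at the floor, beside 7.88% of all genes there. Tropomyosin TPM1 went from 7.94 to 5.48, the myosin heavy chain MYH10 from 6.23 to 4.22 and caldesmon (CALD1) from 4.80 to 3.22. CNN3, CNN2, vinculin (VCL) and MYLK followed with -1.41 to -1.07. Protocadherins, adhesion proteins whose beta cluster genes are single-exon near copies of each other, had 7 of 42 measured members lower. PCDHB10 went from 4.04 to 1.79, PCDHB8 from 4.59 to 2.58 and PCDHB5 from 7.43 to 5.64; probes of these genes may share signal.

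Mitotic genes were lower in large part, beside the 7.88% of all genes at the floor. Of 43 measured centromere and kinetochore genes, 19 were lower by size and 0 higher, with a median of -0.88 over all 43. Of 22 mitotic and checkpoint kinases, 11 were lower and 0 higher (median -1.05), and of 23 cohesin and condensin genes, 12 and 0 (median -1.08 over the 21 at the floor). SKA2, which couples kinetochores to microtubules, went from 7.83 to 5.03. NUF2 and NDC80, partners in the same microtubule-binding complex, went from 5.66 to 3.35 and from 6.26 to 4.25. The checkpoint kinases BUB1 and BUB1B went from 6.74 to 4.76 and from 6.59 to 4.55. In RNA of a whole culture, fewer cells in mitosis and less RNA per cell cannot be told apart.

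AURKA, the centrosomal kinase, was at 8.47 and 7.01, and the motor KIF11, which pushes spindle poles apart, at 5.64 and 3.46. The condensin subunit NCAPG was at 6.94 and 4.90, the cohesin subunit RAD21 at 8.35 and 6.62 and TOP2A at 7.49 and 5.56. Of 27 mitotic cyclins, CDK1 and APC/C genes, 6 were lower and 0 higher, with a median of -0.56. CCNA2 went from 7.94 to 6.29 and CDK1 from 5.26 to 3.91, while cyclin B1 (CCNB1), at 9.62 and 8.61, was at -0.86 after quantile normalization. MKI67, a widely used proliferation marker, was at 5.98 and 5.35. Kinesins had 9 of 42 lower and 1 higher, KIF1A by 1.08, and 8 of 54 centrosome genes were lower. At the floor, 29.0% of 31 kinesins and 22.9% of 35 centrosome genes were lower, beside 7.88% of all genes.

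S-phase genes were lower in part. Of 51 DNA replication genes, all at the floor, 12 were lower by size and 0 higher, with a median of -0.63. The checkpoint adaptor CLSPN went from 5.68 to 3.96, the primase PRIM1 from 7.40 to 5.71 and the helicase subunit MCM6 from 7.21 to 5.54. PCNA was at 7.38 and 6.59. Homologous recombination and Fanconi genes had 7 of 26 lower, among them BRIP1 at -1.52 and BLM at -1.31, whereas BRCA1 was at 3.91 and 3.69. Of G1 regulators CCND1 was at 7.25 and 6.08, RBL1 and RBL2 were lower by -1.68 and -1.57, and CCNE1 was at 7.76 and 7.80. Of 57 replication-dependent histone genes, which are near copies of each other, 9 were lower and 0 higher, H2BC12 from 7.76 to 5.29 and H2BC14 from 10.41 to 8.65.

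The promoter of DLGAP5, a spindle protein at 6.92 without OGE and 4.48 with it, is shown as that of the called mitotic gene with the largest fall that held, before its start, TTTGAA, the core of the cell cycle homology region. It has 2 matches, at 138 and 109 bases before the start, on opposite strands (RefSeq, GRCh38.p14, chr14:55191586-55191835, minus strand; capitals mark the matches).
DLGAP5 promoter: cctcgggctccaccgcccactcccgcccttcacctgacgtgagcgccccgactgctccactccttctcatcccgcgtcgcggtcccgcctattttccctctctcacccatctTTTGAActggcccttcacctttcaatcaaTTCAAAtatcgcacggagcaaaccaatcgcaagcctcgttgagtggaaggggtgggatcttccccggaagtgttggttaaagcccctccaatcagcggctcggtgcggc
Over 300 bases, TTTGAA was in 16 of 31 kinetochore promoters (51.6%) and 6 of 14 promoters of mitotic kinases (42.9%). Before the start only, these shares were 29.0% and 28.6%. It was in 16.3% of promoters of genes called lower, 6.90% of those called higher and 8.81% of all at the floor. Before the start only, these were 13.1%, 6.90% and 7.62%. The E2F-type motif TTTNNCGC was in 23 of 45 replication promoters (51.1%), 14.2% of genes called lower and 10.4% of all.

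**Figure D3:**
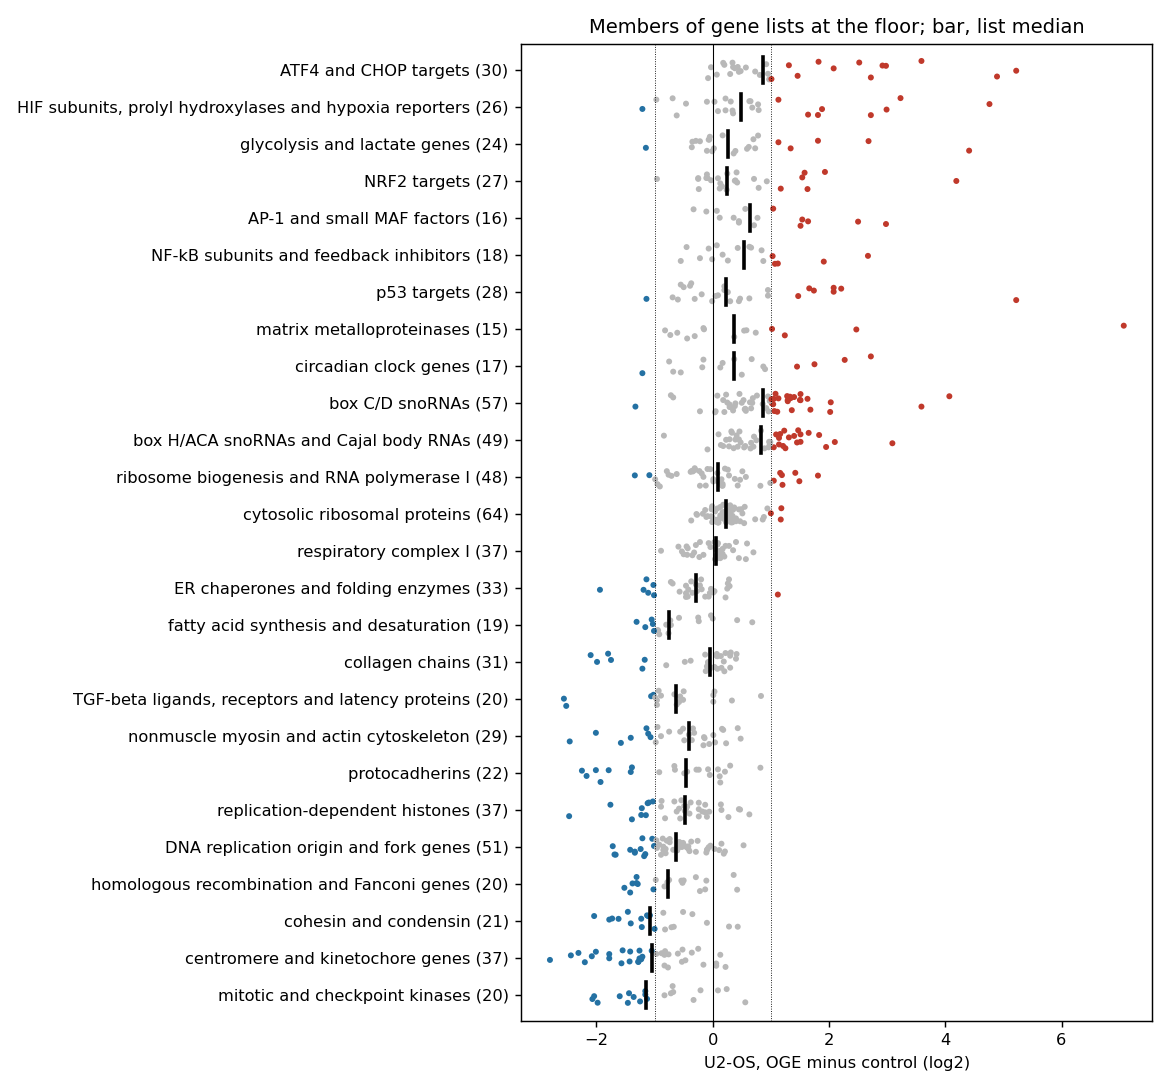
Log2 difference with OGE in U2-OS for the members at the floor of 26 gene lists (number at the floor in parentheses), 1 point per gene, red where higher and blue where lower by size, with a black bar at the list's median. Stress lists reach far to the right, both small nucleolar RNA lists sit above 0 almost throughout, and the kinetochore, kinase and cohesin lists have medians of -1.05, -1.14 and -1.08.

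Calls differed with gene span, the length from start to end of a gene. Genes called higher had a median span of 12.2 kb and genes called lower of 58.5 kb, against 24.2 kb for all at the floor. In the 10% of genes with the shortest span, 7.66% were higher and 2.09% lower; in the longest 10%, 0.957% were higher and 16.2% lower. With protein-coding genes alone the shares higher and lower were 3.84% and 2.38% in the shortest 10% and 1.01% and 16.5% in the longest. Medians over the 10 span classes ran from 0.23 to -0.30 in U2-OS and from 0.10 to -0.14 in HOS. By level, the range was narrower: the share called lower lay between 5.91% and 9.56% in 10 equal classes of mean level, with the largest shares, 9.38% and 9.56%, in the brightest classes.

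The lists differ in span, and its part in their values was not tested. Kinetochore genes had a median span of 26.3 kb, close to that of all genes. Of the 16 shorter ones, 5 were lower (31.2%), against 3.32% of all shorter genes, and of the 21 longer ones 14 (66.7%), against 12.4%. Cohesin and condensin genes, with a median of 48.6 kb, had 0 of 2 shorter and 12 of 19 longer members lower. Collagens (90.1 kb), TGF-beta genes (81.2 kb) and integrins and laminins (79.1 kb) were mostly long: 5 of 28, 4 of 18 and 4 of 19 of their longer members were lower. These were 17.9%, 22.2% and 21.1%, beside 12.4% of all longer genes. Histone genes, at 0.493 kb, were all short, with 9 of 37 lower. Among ATF4 targets 9 of 15 shorter and 3 of 15 longer members were higher, against 4.07% and 1.81% of all genes.

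**Figure D4:**
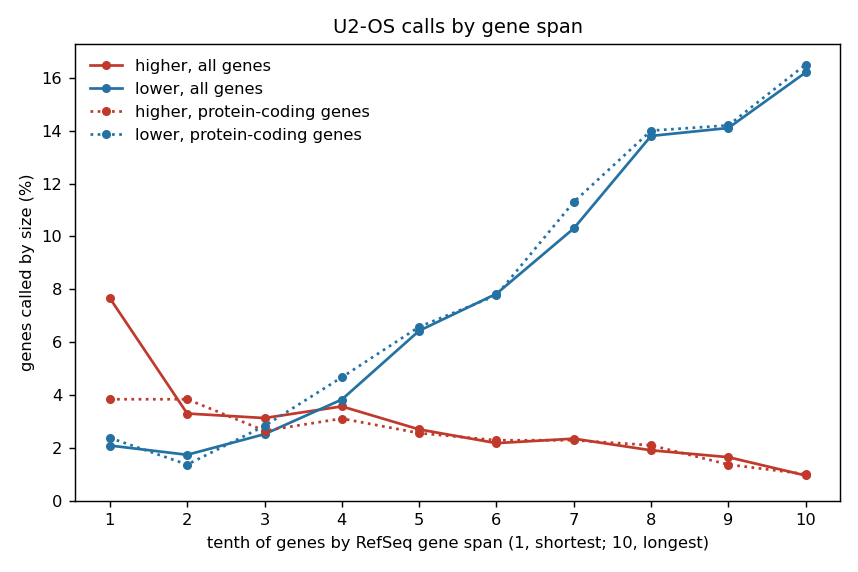
Share of U2-OS genes called higher (red) or lower (blue) by size in 10 equal classes of RefSeq gene span, for all genes at the floor (solid) and protein-coding genes (dotted). The share lower climbs to 16.2% in the longest 10%, while the share higher goes from 7.66% to 0.957%, and starts at 3.84% for protein-coding genes.

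Small nucleolar RNAs, all of short span, were often higher. They guide chemical modification of ribosomal and spliceosomal RNA and are mostly cut from introns of other genes. Of 115 measured box C/D RNAs, 57 reached the floor, and of these 24 were higher by size (42.1%) and 1 lower. Of 77 box H/ACA and Cajal body RNAs, 49 reached it, with 19 higher (38.8%) and 0 lower. Of all genes at the floor 2.94% were higher, and 7.66% in the class of shortest span, which includes such RNAs. Medians over all measured members were 0.40 for box C/D RNAs and 0.49 for the others. SNORD14C went from 3.46 to 7.53 and SNORD14E from 1.76 to 5.35. Both lie in HSPA8 and have near-identical relatives there, and HSPA8 itself was at 11.20 and 10.72. SNORA28, inside EIF5, went from 1.38 to 4.47, where EIF5 was at 6.63 and 6.53.

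For 97 of the 192 small RNAs, exactly 1 other measured gene spanned the position in the RefSeq table, which gives no strand here. The small RNA had the greater difference in 79 of these 97 pairs, which involve 75 genes, with medians of 0.57 for the small RNAs and 0.08 for the containing genes. Where both reached the floor, it did in 50 of 60 pairs. SNORA74A was higher by 1.47 and SCARNA10 by 1.23 while MATR3 and NCAPD2, which contain them, were lower by -1.29 and -1.22. SNORD12C lies in the noncoding gene ZFAS1 and both were higher, by 2.02 and 1.96. SNORA71A and SNORA71D, in SNHG17, were higher by 1.31 and 1.25 and SNHG17 by 1.60. Over the 60 pairs with both at the floor, Pearson's r was 0.05, a description of pairs that share genes and arrays.

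**Figure D5:**
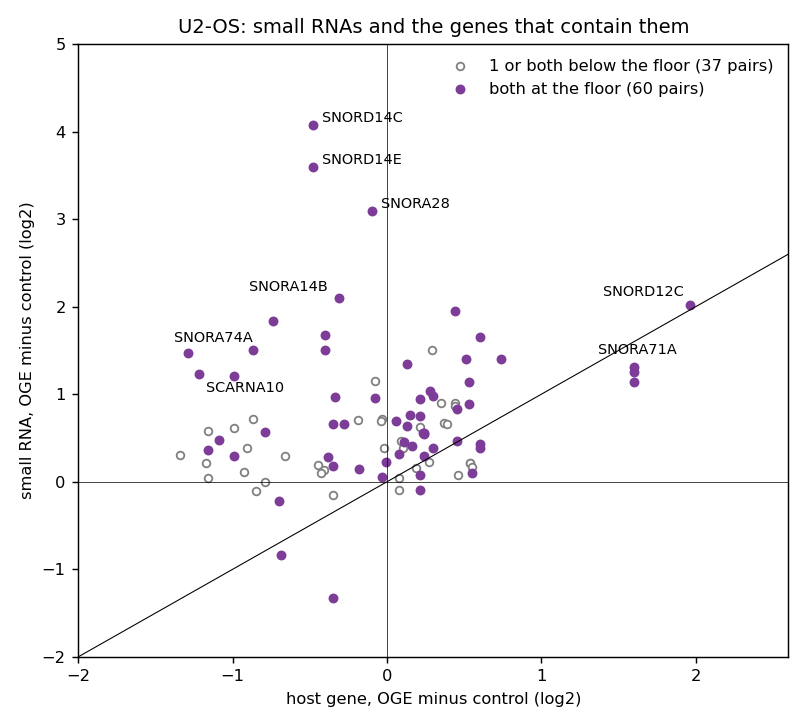
Log2 difference with OGE in U2-OS of 97 small nucleolar and Cajal body RNAs (vertical axis) against that of the gene containing each (horizontal axis), filled where both reached the floor, with the line of equality. In 79 pairs the point lies above the line, and SNORD14C and SNORD14E are at 4.07 and 3.59 over HSPA8 at -0.48.

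Ribosome biogenesis genes were higher in part. Of 48, 7 were higher by size (14.6%, beside 2.94% of all genes at the floor) and 2 lower, with a median of 0.08. NOP16 went from 5.14 to 6.95, and RRP12 and POLR1H were higher by 1.49 and 1.42. RRN3, which recruits RNA polymerase I, was lower, at 5.81 and 4.72. Cytosolic ribosomal proteins had 3 of 66 higher and 0 lower, with 51 of the 64 at the floor above 0 and a median of 0.24. Splicing factors had 9 of 65 lower and 3 higher, with the hnRNP genes HNRNPM and HNRNPH1 going from 9.86 to 8.29 and from 10.03 to 8.53, SRSF1 at -1.29 and the splicing kinases CLK1 and CLK3 at 1.06 and 1.09. TRA2A, at -1.31, was at 0.06 as the mean of its probe sets. HNRNPA1, higher by 1.43, has many pseudogene copies and is uncertain.

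Mitochondrial and lipid genes were mixed. Of 41 measured complex I genes 0 were called, with the 37 at the floor between -0.89 and 0.70, and likewise 0 of 53 genes of complexes II to V. Of all genes at the floor 2.94% were higher and 7.88% lower. Below the median span of 24.2 kb these shares were 4.07% and 3.32%. Of the respiratory genes at the floor, 28 of 37 and 41 of 46 lay below that span. ACADM, which starts the oxidation of medium-chain fatty acids, was lower by size, with a difference of -2.49. Branched-chain and propionate catabolism had 6 of 23 lower, with DLD and HIBCH both at -1.58. Fatty acid synthesis and desaturation had 5 of 23 lower and 0 higher, with a median of -0.72: ACACA, the rate-limiting carboxylase, differed by -1.16, FADS1 went from 8.07 to 6.76, and FASN and SCD differed by -0.73 and -0.92. Of 45 proteasome genes, 3 were lower, 6.98% of the 43 at the floor, beside 7.88% of all genes at the floor. Of 37 autophagy genes, 3 were higher and 1 lower. These were 9.38% and 3.12% of the 32 at the floor, beside 2.94% and 7.88% of all genes there. CD68, on the immune list and also a lysosomal protein, went from 4.20 to 5.55; PTPRC, the pan-leukocyte marker, was at 1.28 and 1.48.

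Of 173 measured microRNA genes, 43 reached the floor. Of these, 0 were higher by size and 1 lower, beside 2.94% and 7.88% of all genes at the floor. The 1 called was MIR21, which is named here after its value was seen. Its probe set reads the precursor transcript, not the mature microRNA, and went from 7.37 to 5.31, while the HOS values differed by 0.65. It lies within the RefSeq span of VMP1, which was at 9.11 and 8.75. The mature arm is shown to identify it, with the seed (bases 2 to 8) in capitals (RefSeq, GRCh38.p14, chr17:59841273-59841294, plus strand).
hsa-miR-21-5p: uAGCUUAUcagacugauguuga

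In HOS, 193 genes were higher by size (1.70% of 11334 at the floor) and 247 lower (2.18%). The U2-OS and HOS pairs share no array. Of the 338 genes called higher in U2-OS, 83 were also higher in HOS (24.6% of the U2-OS and 43.0% of the HOS calls), and 118 were lower in both, of 907 in U2-OS and 247 in HOS (47.8% of the latter); 0 were called in opposite directions. The median HOS difference was 0.54 over the genes called higher in U2-OS and -0.48 over those called lower. The HOS difference had the opposite sign for 41 of the genes called higher and 144 of those called lower.

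At the threshold, 6 genes were just inside with a difference of 1.00, among them MAP1LC3B and SARS1, and 9 just outside with 0.99, among them IRF1 and YARS1. On the lower side 16 were exactly at the threshold, among them STAG2 and DEK, and 13 at -0.99, among them NCL and UHRF1. Of the genes below the floor, 29 were higher and 52 lower by at least 1 and were not called. Of the called genes, 49 have more than 1 probe set, and in 8 of them the probe sets differed in sign.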

How the data were processed

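RNA of 4 cultures (U2-OS and HOS, each at 0 and 600 μg/mL OGE for 24 h) was measured on 1 whole-transcript array each. The deposited log2 values were made by the authors with RMA, per the submitters' processing notes, whose version and the genome build of the probe sets are not given in the sources used here. Of 33297 probe sets, 19460 carry 1 gene symbol, 1754 several and 12083 none; 19429 were named through the gene IDs of the RefSeq table (GRCh38.p14) and 31 kept the platform's symbol. Where a gene had several probe sets, that of highest mean level across the 4 arrays stood for it, which left 18417 genes. The difference OGE minus control was called by size at 1 or more (2-fold) where the higher array was at or above its median.

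The members, 96 gene lists and motifs were chosen with earlier results of these data known. Named genes were taken from the 40 largest rises and falls, each list's called and defining members and genes at the thresholds. Not all genes under this naming rule are printed, and a gene outside it is named only beside these. The scripts were tested on simulated data. Alternatives were other thresholds, floors and probe-set rules, and quantile and cyclic loess normalization in limma 3.58.1 (R 4.3.3). Other steps used Python 3.11.15, pandas 2.3.3, numpy 2.4.6 and matplotlib 3.10.9. Promoters span 250 bases before to 50 after the RefSeq start, and motifs were searched on both strands.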

Additional observations from a re-analysis of the deposited data

Results flagged for a closer look

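Of the genes chosen by the naming rule, 2 that reached the floor in both lines differed by at least 0.5 in HOS in the direction opposite to U2-OS, which was not tested. NIPAL4 went from 3.19 to 5.83 in U2-OS, while its HOS difference was -0.56. RRN3 went from 5.81 to 4.72 in U2-OS, while its HOS difference was 0.54. Each rests on 1 array per state. MIR21, named outside that rule, was at 7.37 and 5.31 in U2-OS with a HOS difference of 0.65, and PYROXD1, at 3.84 and 1.67, had a HOS difference of 0.74 between values below the array median.

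Probe sets that name no gene were used in none of the comparisons. In U2-OS, 390 of the 4442 at the floor were higher by size (8.78%) and 347 lower (7.81%), against 366 (3.03%) and 934 (7.72%) of the 12097 probe sets at the floor with 1 gene.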

How the results depend on the processing

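The 338 genes higher and 907 lower by size in U2-OS became 1162 and 2134 at 1.5-fold and 100 and 193 at 3-fold. The other planned floors, normalizations and probe-set rules gave 233 to 368 higher and 618 to 959 lower. With protein-coding genes only, chosen after seeing the data, the share higher in the 10% of shortest span was 3.84% in place of 7.66%. With all measured members in place of those at the floor, the list median changed sign for metalloproteinase inhibitors and ADAMTS proteases (0.06), caspases (0.10) and cancer-testis antigens (0.04), since members below the floor then count. Medians nearer 0 changed sign as well, so that 7 of 96 list medians did so with all measured members and 3 after cyclic loess. Of the 421 calls under the naming rule, printed or not, 406 held after quantile normalization and 409 after cyclic loess. When probe sets were averaged per gene 415 held, and TRA2A turned to 0.06. The median over all genes was 0.03 as deposited, -0.003 after quantile normalization and -0.033 after cyclic loess. No paired analysis was possible because the U2-OS comparison has 1 array per state, and blocking by line would pool U2-OS with HOS. Genes below the array median were not called, and signals there may lie near background, which also touches differences of called genes with 1 such value.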
